A study of Mus musculus with 12 samples.

Results

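The interferon-inducible GTPases of the GBP and IRG families were examined in splenic dendritic cells (DCs) of mice, on every probe set of the array whose annotation names only one of the genes Gbp2, Gbp3, Irgm1, Igtp, Iigp1, Ifi47 and Tgtp1. This rule found 8 probe sets of 6 genes among the 45101 probe sets of the table, and all 8 passed the filter on low values. Gbp2 and Iigp1 had 2 probe sets each, and Gbp3, Irgm1, Igtp and Ifi47 had 1. Tgtp1 had none of its own. The probe set 1449009_at is annotated to both Tgtp2 and Tgtp1, near-identical neighbouring genes, so its values stand beside those of the members and are assigned to neither gene.

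The study compared mice homozygous for alymphoplasia (aly), a mutation of Map3k14 that disables the kinase NIK, with heterozygous littermates, which the labels call wild type (WT) and which carry 1 aly allele. DCs came from 4 groups: aly mice given 25 µg LPS and 100 µg of an activating antibody to CD40 into the peritoneum and examined 6 hours later (aly treated), aly mice left alone (aly untreated), heterozygous littermates given the same agents (WT treated) and heterozygous littermates left alone (WT untreated). LPS and the antibody were given together, so the treatment effect belongs to the pair. Each group had 3 Affymetrix arrays, and each array held amplified RNA of DCs pooled from 3 mice, selected on CD11c beads and sorted by flow cytometry. The aly mutation is present in all cells of the animal, and the labels give no ages. The p-values measure the spread between arrays of pools, not between single mice.

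GBPs are large GTPases and IRG proteins are smaller ones that cells make in response to interferons. They load onto the membranes of vacuoles that hold parasites or bacteria, and GBPs also expose bacterial LPS to the caspase that senses it in the cytosol. Among mouse IRG proteins, Irgm1 and the product of Igtp (also called Irgm3) are regulators that keep the effectors off the cell's own membranes, whereas the products of Iigp1, Ifi47 and the Tgtp genes are effectors that coat vacuoles. Their transcription is known to depend on interferon gamma and type I interferons through the interferon receptors and IRF factors. NIK is the kinase of the non-canonical NF-kB pathway, which CD40 engages.

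The values are intensities on a linear scale, scaled to the same 2% trimmed mean, 150.001, on every array. All 7 pan-DC markers were measured, and their summed intensity was 26340 to 47260 in aly treated, 35050 to 37740 in aly untreated, 18140 to 28130 in WT treated and 31110 to 33700 in WT untreated arrays. The class II genes H2-Ab1 and Cd74 made up most of this sum. The highest sum was on aly treated replicate 1, where they read 19900 and 26500. On that array Itgax (230), Flt3 (267), Zbtb46 (44) and Dpp4 (152) were the lowest of the 12 arrays, and Ciita (208) was not. The 9 red pulp macrophage markers, all measured, summed to 26290 to 52190 in aly treated and 35250 to 56920 in aly untreated arrays, against 2294 to 13250 in WT treated and 2260 to 14600 in WT untreated arrays, so they moved with genotype. Erythroid markers (3 of 6 measured) did so too, with sums of 453 to 2837 in aly treated and 684.9 to 1746 in aly untreated arrays, against 15 to 333.2 in WT treated and 12.1 to 165.6 in WT untreated arrays. Monocyte markers (4 of 5 measured) summed to 10130 to 14980 in aly treated and 11620 to 19330 in aly untreated arrays, and to 631.5 to 4594 in WT treated and 5593 to 11580 in WT untreated arrays. Of the 7 T cell markers 3 were measured, and their sum was 18.6 to 144.7 over the 12 arrays. The sum of 6 measured natural killer cell markers was 838.5 to 1948 in aly treated, 1133 to 1673 in aly untreated, 1148 to 3217 in WT treated and 2240 to 3207 in WT untreated arrays. Klrd1 made up most of this sum on untreated arrays and read 327, 2540 and 981 in WT treated and 2100, 3120 and 2230 in WT untreated arrays. Gzma went the other way, with 1350, 484 and 84.1 against 41.5, 7.3 and 26.8. The median log2 change of the 6 markers with treatment was 0.68 in WT and 0.07 in aly. The Actb 3' over 5' ratio, a measure of RNA integrity and amplification, was 1.78 to 55.8 on aly arrays and 1.39 to 1.94 on WT arrays. The Gapdh ratio was 7.1 to 45.7 on aly and 4.58 to 8.73 on WT arrays. The mean log2 of both ratios was 2.17 to 5.66 on aly and 1.37 to 1.83 on WT arrays. This mean thus moved with genotype without overlap, and its part in the comparisons of genotypes was not tested. The highest Actb ratio, 55.8, belonged to aly treated replicate 1, which also had the lowest rank correlations with the other arrays (0.52 to 0.648). Neutrophil markers (5 of 6 measured) summed to 281.4 to 13140 in aly treated and 241.9 to 2755 in aly untreated arrays. Their sums were 101 to 960.3 in WT treated and 50.7 to 348.3 in WT untreated arrays. The highest sum was on aly treated replicate 1, where S100a8 read 4160, S100a9 7330 and Ngp 1520, and its part was not tested. Poly-A spike-in controls averaged 99.3 to 1070 on replicates 2 and 3, and 4.03 to 20.2 on every array numbered 1, so that replicate 1 stood apart in the same way in all 4 groups. In pooled samples, fewer cells of a type and less RNA per cell cannot be told apart.

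After LPS with anti-CD40 the 8 GBP and IRG probe sets had log2 differences of 1.06 to 3.06 in aly DCs, and only the second Gbp2 probe set passed the test. In WT DCs all 8 rose, from 6.58-fold for Irgm1 to 51.5-fold for Gbp2. Before treatment no member passed the test between genotypes, although every untreated aly array read above every untreated WT array for Gbp2 and Iigp1. After treatment Gbp3, Irgm1, Igtp, Ifi47 and, on the first of its probe sets, Gbp2 were lower in aly than in WT. These comparisons share arrays, so their values are not independent of each other.

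Because these genes moved together in WT DCs, the letters before their starts were read for interferon motifs. Windows of 300 bases, from 250 before to 50 after the start annotated by RefSeq on GRCm38.p6, were searched on both strands for 3 motifs: the core of the interferon-stimulated response element (ISRE), which is 2 runs of GAAA with any pair of bases between, the gamma-activated site (GAS), TTCNNNGAA, and a loose kappa B core, GGG and CC with any 5 bases between. Of the 5 genes with a probe set of their own whose windows were read, 4 held an ISRE core in any of their windows. Iigp1 was not among the 5. Of all 32851 windows of this length, 3.44% hold this core. The count is per gene, and Gbp3 had 2 windows, whereas the share is per window. The genes were also chosen as interferon-inducible, so the count and the share are not like for like, and enrichment was not tested. Igtp also held a GAS, as do 8.30% of windows. The window of Tgtp1, which has no probe set of its own, held an ISRE core and a GAS. The kappa B letters occur in 50.8% of windows and are not followed further. The 100 bases before the start are given in the direction of the gene, with ISRE and GAS letters in capitals:
Gbp2 (chr3:142620563-142620662, plus strand): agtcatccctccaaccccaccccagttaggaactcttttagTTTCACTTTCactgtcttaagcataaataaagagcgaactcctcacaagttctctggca
Gbp3 (chr3:142559944-142560043, plus strand): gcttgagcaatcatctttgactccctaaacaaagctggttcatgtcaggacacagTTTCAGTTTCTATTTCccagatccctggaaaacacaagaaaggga
Irgm1 (chr11:48871421-48871520, minus strand): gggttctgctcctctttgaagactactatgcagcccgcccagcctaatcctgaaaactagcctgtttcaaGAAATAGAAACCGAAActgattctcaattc
Igtp (chr11:58199456-58199555, plus strand): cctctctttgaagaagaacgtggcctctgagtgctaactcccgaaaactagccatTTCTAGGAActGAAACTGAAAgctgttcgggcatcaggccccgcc
Ifi47 (chr11:49076487-49076586, plus strand): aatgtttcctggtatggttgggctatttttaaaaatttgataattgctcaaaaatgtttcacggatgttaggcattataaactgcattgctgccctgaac
Tgtp1 (chr11:48992247-48992346, minus strand): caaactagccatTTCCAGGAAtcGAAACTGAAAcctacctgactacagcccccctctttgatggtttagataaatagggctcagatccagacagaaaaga

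In the Gbp2 stretch the ISRE core runs from base -59 to -50, on the opposite strand. Gbp3 and Irgm1 each hold 2 overlapping cores, from -45 to -30 and from -30 to -15, and a second annotated start of Gbp3 holds none. The capitals of Igtp and of Tgtp1 mark a GAS followed by an ISRE core, at -45 to -37 and -34 to -25 in Igtp and at -88 to -80 and -77 to -68 in Tgtp1. The Ifi47 window held neither motif, and its WT response was 11.6-fold, beside 11.4-fold for Igtp. No window of Iigp1 was read.

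Gbp2, a GTPase known in the mouse for its recruitment to Toxoplasma vacuoles, was read by probe sets 1418240_at and 1435906_x_at; for every gene the arrays stand in the order of replicates 1 to 3. On 1418240_at the intensities were 1955, 1373 and 2564 in aly treated and 527, 354 and 967 in aly untreated arrays, and 11814, 11529 and 12588 in WT treated and 218, 206 and 227 in WT untreated arrays. On 1435906_x_at they were 7464, 2729 and 3226 in aly treated and 578, 356 and 505 in aly untreated arrays, and 5985, 5462 and 6050 in WT treated and 257, 219 and 205 in WT untreated arrays. The 4 groups did not overlap on the first probe set, with WT treated far above all others, whereas on the second the highest aly treated array stood above every WT treated array. Among WT arrays Gbp2 varied little: the coefficient of variation was 4.57% in WT treated and 4.81% in WT untreated arrays on 1418240_at, against 30.3% in aly treated and 51.4% in aly untreated arrays.

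Gbp3 lies in the same cluster on chromosome 3, where Gbp2b stands between Gbp3 and Gbp2 in the RefSeq order of protein-coding genes. Its probe set 1418392_a_at read 840, 1225 and 1027 in aly treated and 327, 532 and 538 in aly untreated arrays, and 4137, 2409 and 3346 in WT treated and 381, 182 and 136 in WT untreated arrays. The treated arrays lay above the untreated arrays in both genotypes, and every WT treated array lay above every aly treated array. The untreated groups overlapped.

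Of the regulatory IRG genes, Irgm1 (1418825_at) read 518, 338 and 628 in aly treated and 253, 178 and 238 in aly untreated arrays, and 1826, 2018 and 2400 in WT treated and 228, 347 and 342 in WT untreated arrays. Igtp (1417141_at) read 4223, 2493 and 1574 in aly treated and 1126, 784 and 757 in aly untreated arrays, and 9432, 5614 and 7754 in WT treated and 525, 582 and 840 in WT untreated arrays. For both genes every aly treated array lay below every WT treated array and above every aly untreated array. For Irgm1 the lowest aly treated array, 338, lay within the range of untreated WT arrays, and the untreated genotypes overlapped for both genes.

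Iigp1 encodes an effector IRG protein (Irga6 in the mouse nomenclature). Its probe set 1419042_at read 2348, 395 and 384 in aly treated and 275, 125 and 213 in aly untreated arrays, and 2562, 1197 and 1205 in WT treated and 62, 19 and 38 in WT untreated arrays. On 1419043_a_at the intensities were 4674, 1046 and 689 in aly treated and 677, 408 and 1004 in aly untreated arrays, and 6966, 4006 and 3176 in WT treated and 181, 43 and 99 in WT untreated arrays. Aly treated replicate 1 was several times above the other aly treated arrays on both probe sets and reached into the WT treated range, while the untreated aly arrays were above all untreated WT arrays on both.

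Ifi47 (1417292_at), another effector IRG gene, read 5011, 2335 and 3282 in aly treated and 1554, 877 and 1386 in aly untreated arrays, and 9743, 7560 and 10767 in WT treated and 682, 899 and 784 in WT untreated arrays. The shared Tgtp2 and Tgtp1 probe set read 4503, 5463 and 6212 in aly treated and 2230, 2126 and 3525 in aly untreated arrays, and 13124, 13566 and 18318 in WT treated and 1376, 2045 and 1866 in WT untreated arrays. Both had WT treated highest and aly treated second, with no overlap between those groups. The untreated groups overlapped for Ifi47 and did not for the Tgtp probe set.

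**Figure D1:**
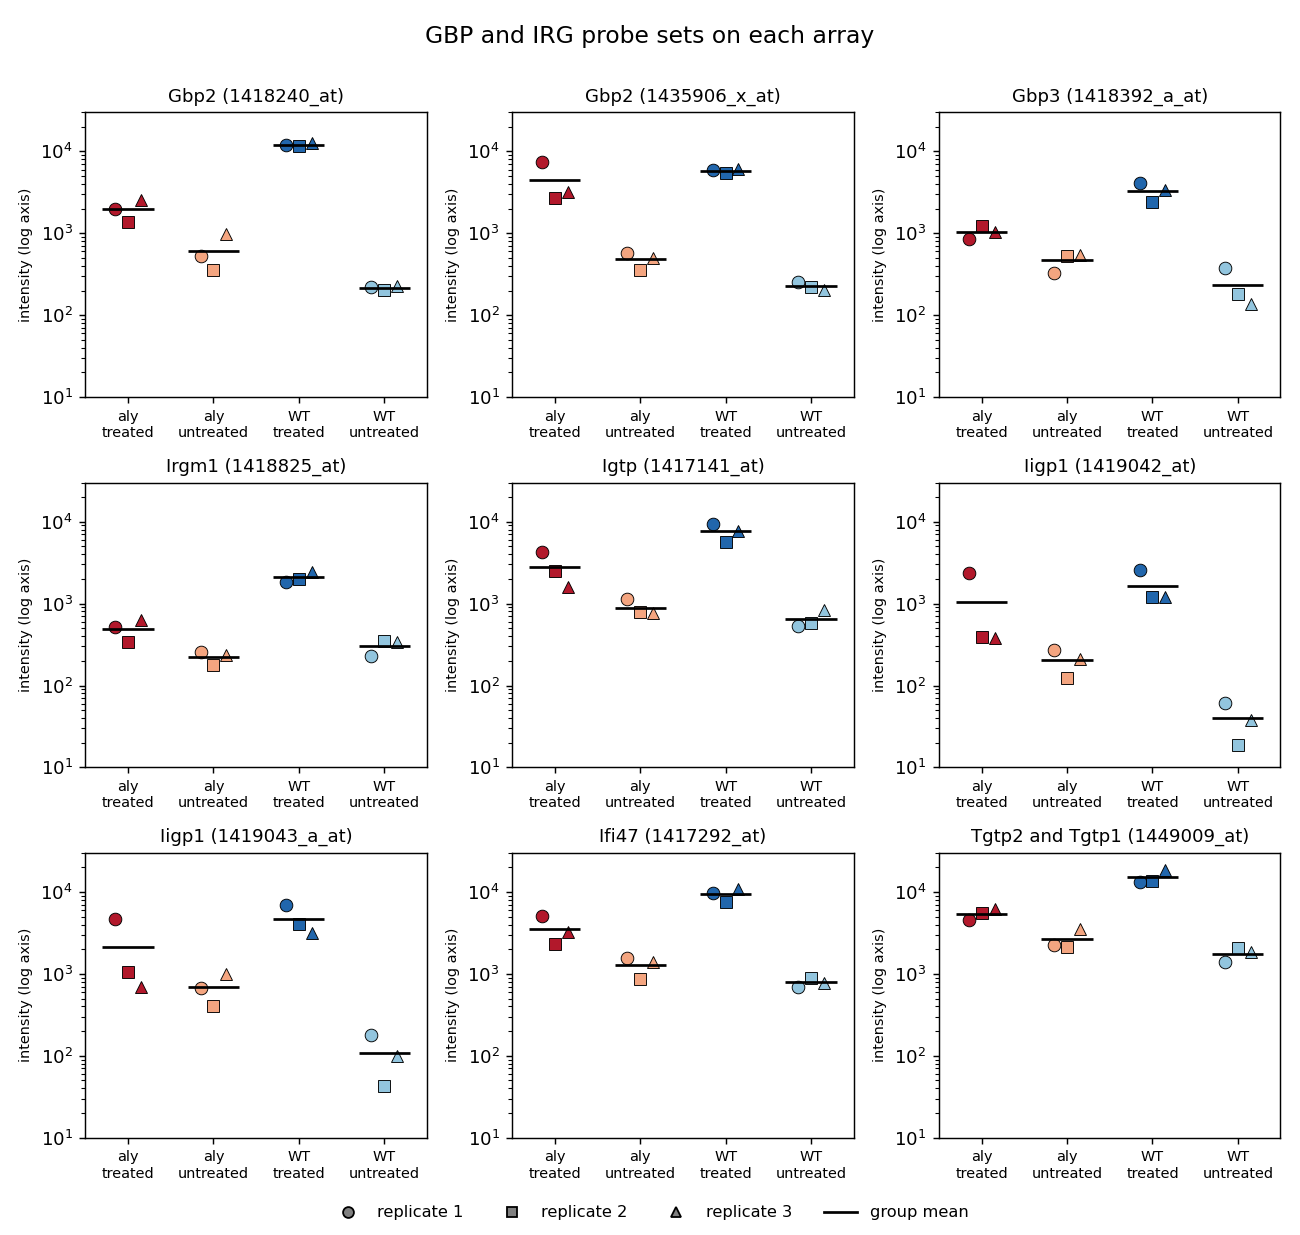
Intensity (log axis) of the 8 member probe sets and of the shared Tgtp2 and Tgtp1 probe set on each of 12 arrays, by group; marker shape gives the replicate number and the black line the mean of 3 arrays. The treated groups overlap on 3 panels: on the second Gbp2 probe set aly treated replicate 1 reads 7464, against 6050 on the highest WT treated array, and on both Iigp1 probe sets it lies within the WT treated range.

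Treated and untreated aly DCs were compared to see what the treatment did in the mutant. Values were tested as log2(intensity + 16) with limma across 34205 probe sets, and a change counted as called where its p, adjusted by Benjamini-Hochberg, was under 0.05; folds are on this scale and understate the change of dim probe sets. Gbp2 rose by 3.06 ± 0.40 on 1435906_x_at (SE, n = 3 arrays per group), 8.33-fold (limma adjusted p = 0.0026), while on 1418240_at its change was 1.72 ± 0.40, 3.30-fold, which was not called (adjusted p = 0.092). Gbp3 gave 1.14 ± 0.41 (adjusted p = 0.35). Irgm1 and Igtp gave 1.06 ± 0.37 (adjusted p = 0.33) and 1.53 ± 0.41 (adjusted p = 0.18). Of the 8 members 1 was called higher, where 0.257% of all probe sets were, 7 had an unadjusted p under 0.05 (3933 of all 34205 did), and 7 had every treated array above every untreated array, against 6.29% of all.

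The effector IRG genes did not pass in aly DCs. Iigp1 gave 1.79 ± 0.59 (adjusted p = 0.30) and 1.18 ± 0.61 (adjusted p = 0.46), and the treated and untreated arrays overlapped on the second probe set. Without aly treated replicate 1 the Iigp1 changes were 0.94 and 0.37. Ifi47 gave 1.44 ± 0.39 (adjusted p = 0.17) and the Tgtp probe set 1.06 ± 0.36 (adjusted p = 0.33). The median change in aly was 1.48 over the members and 0.01 over all probe sets. The call of Gbp2 on 1435906_x_at held in 21 of 23 other settings and was lost with an offset of 1 (adjusted p = 0.050) and when only the aly arrays were fitted (adjusted p = 0.10).

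The same comparison was made in WT DCs, from the heterozygous littermates. The change of Gbp2 was 5.69 ± 0.40 on 1418240_at, 51.5-fold (limma adjusted p = 3.1e-07), the fourth smallest p of all probe sets. On 1435906_x_at Gbp2 rose by 4.59 ± 0.40, 24.1-fold (adjusted p = 2.3e-06). Gbp3 rose by 3.82 ± 0.41, 14.2-fold (adjusted p = 1.9e-05). The 2 GBP genes thus both passed the test, on all 3 probe sets.

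The regulatory IRG genes rose by 2.72 ± 0.37 log2 units for Irgm1 (6.58-fold, adjusted p = 0.00015) and 3.51 ± 0.41 for Igtp (11.4-fold, adjusted p = 3.9e-05). The effector gene Iigp1 rose by 4.88 ± 0.59 (29.5-fold, adjusted p = 4.7e-05) and 5.35 ± 0.61 (40.7-fold, adjusted p = 3.2e-05) on its 2 probe sets. Ifi47 rose by 3.54 ± 0.39 (11.6-fold, adjusted p = 1.9e-05), and the shared Tgtp probe set by 3.08 ± 0.36 (8.46-fold, adjusted p = 4.1e-05). All 8 member probe sets were thus called higher, where 3.82% of all tested probe sets were, and all 8 had every treated array above every untreated array, where 13.8% of all did. The median change was 4.21 over the members and -0.07 over all tested probe sets. Leaving out any single array left all 8 called. Markers of type 1 conventional DCs (6 of 7 measured) moved with the treatment the other way: their sums were 4636 to 7287 in aly treated and 11930 to 13080 in aly untreated arrays, and 4064 to 6712 in WT treated and 7973 to 14740 in WT untreated arrays. Of these 6 markers 0 were called in aly (limma, median -1.56), where 0.0175% of all probe sets were called lower. In WT 4 were called lower (median -2.96), where 2.72% of all probe sets were. The part of these markers in the response of the GTPase genes was not tested.

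**Figure D2:**
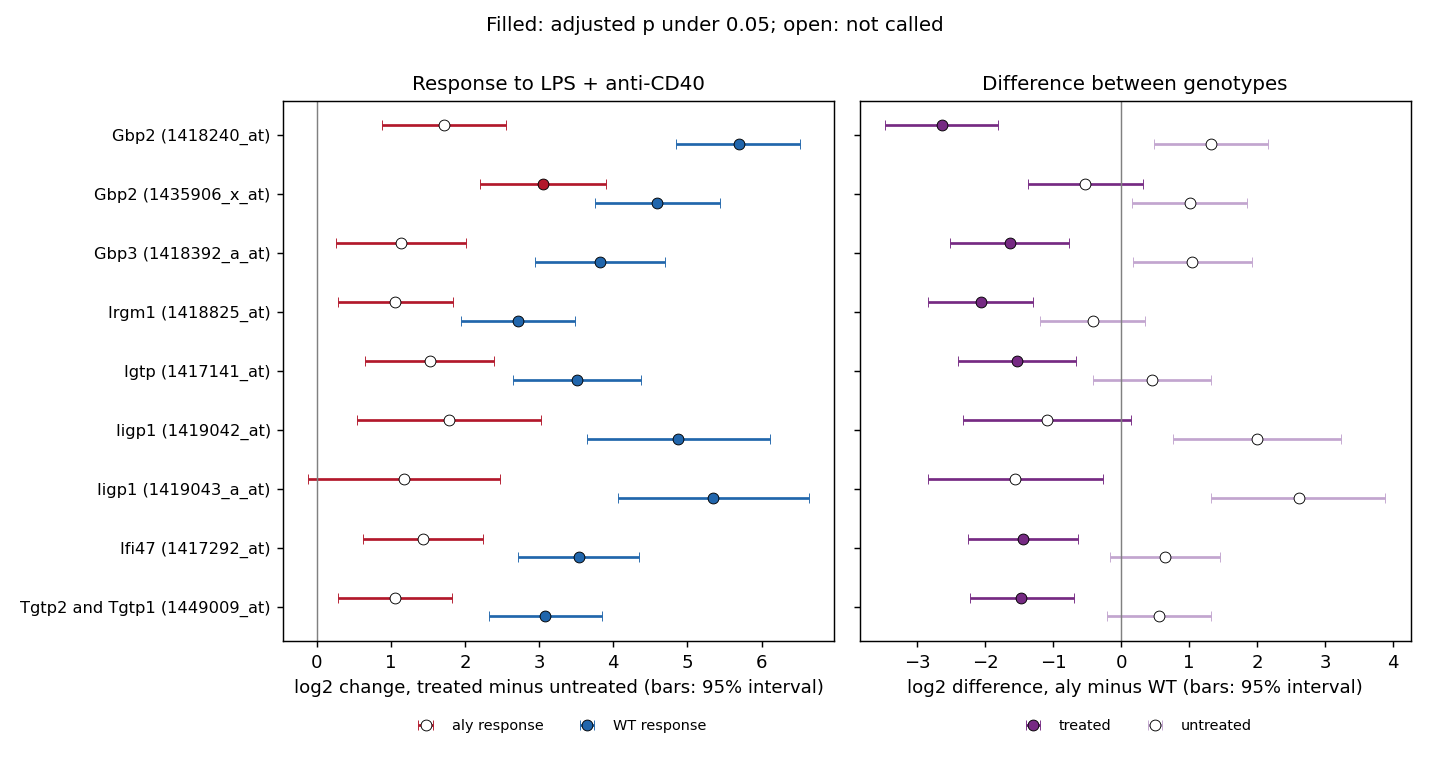
Log2 changes with 95% intervals for each probe set, from 3 arrays per group; the left panel gives treated minus untreated in aly and in WT, the right panel gives aly minus WT among treated and among untreated DCs. Filled points passed an adjusted p under 0.05; in WT all 9 probe sets shown are filled, and in aly only Gbp2 on 1435906_x_at, at 3.06.

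Between untreated DCs, the comparison of aly with WT gave the starting level of these genes. No member was called: 0 of 8 in limma, where 0.351% of all probe sets were called higher, while 5 had an unadjusted p under 0.05, as did 3255 of all 34205. Iigp1 differed most, with 2.00 ± 0.59 (3.99-fold, adjusted p = 0.20) and 2.61 ± 0.61 (6.08-fold, adjusted p = 0.079) on its probe sets. Gbp2 differed by 1.32 ± 0.40 (adjusted p = 0.21) and 1.01 ± 0.40 (adjusted p = 0.41), and on these 4 probe sets, but none of the others, every untreated aly array was above every untreated WT array, against 12.1% of all probe sets.

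Gbp3 differed by 1.04 ± 0.41 (adjusted p = 0.41), Igtp by 0.45 ± 0.41 (95% interval -0.42 to 1.32), Ifi47 by 0.65 ± 0.39 (-0.16 to 1.46) and Irgm1 by -0.42 ± 0.37 (-1.19 to 0.35). Irgm1 was the only member with a negative difference. The median was 1.03 over the members and 0.11 over all probe sets. Both Iigp1 probe sets were called without aly treated replicate 1 (adjusted p = 0.011 and 0.0040), an array that enters this comparison only through the estimate of the spread. With a block that sets replicate 1 apart by its spike-in level both were called as well (adjusted p = 0.028 and 0.012). The same held with the replicate number as a block (adjusted p = 0.044 and 0.023). Within replicates 1, 2 and 3 the differences were 1.90, 2.01 and 2.07 on 1419042_at and 1.81, 2.85 and 3.15 on 1419043_a_at, all of them positive. The red pulp macrophage markers moved the same way here. In untreated aly DCs 4 of 9 were called higher, where 0.351% of all probe sets were, with a median difference of 3.65. Adgre1 overlapped, with 1570, 1890 and 3900 in aly untreated and 2240, 2390 and 881 in WT untreated arrays. The part of these markers in the Iigp1 and Gbp2 differences was not tested.

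Among treated DCs, Gbp2 on 1418240_at was 6.25-fold lower in aly (-2.64 ± 0.40 log2 units, limma adjusted p = 0.0026). Irgm1 was 4.21-fold lower (-2.07 ± 0.37, adjusted p = 0.0066), Gbp3 3.13-fold lower (-1.64 ± 0.41, adjusted p = 0.035), Igtp 2.90-fold lower (-1.54 ± 0.41, adjusted p = 0.046) and Ifi47 2.73-fold lower (-1.45 ± 0.39, adjusted p = 0.044). These 5 of 8 members were called lower, where 2.01% of all probe sets were, and these same 5 had every aly treated array below every WT treated array, against 9.02% of all. The Tgtp probe set was 2.77-fold lower (-1.47 ± 0.36, adjusted p = 0.032).

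The other 3 members overlapped between the treated genotypes. Gbp2 on 1435906_x_at differed by -0.53 ± 0.40 (95% interval -1.37 to 0.32, adjusted p = 0.47), and Iigp1 by -1.10 ± 0.59 (adjusted p = 0.30) and -1.56 ± 0.61 (adjusted p = 0.16). Without aly treated replicate 1, the Iigp1 differences were -1.95 (adjusted p = 0.015) and -2.37 (adjusted p = 0.0097), both called, and that of Gbp2 on 1435906_x_at was -0.97 (adjusted p = 0.12). The median was -1.55 over the members and 0.21 over all probe sets. The sign of the median over all probe sets depended on the scaling: it was -0.12 with median centring and 0.03 with quantile normalization. With each array centred on its median the same count of 5 was called, and the share of all probe sets called lower was 3.60% in place of 2.01%.

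The calls among treated DCs differed in stability. That of Gbp2 on 1418240_at held in 23 of 24 other settings and that of Irgm1 in 21, against 16 for Gbp3, 11 for Ifi47 and 10 for Igtp. Among leave-one-out fits, the lowest count was 1 member called, without WT treated replicate 3, and the highest was 7, without aly treated replicate 1. Macrophage markers again read higher in aly by their median, with 4 of 9 called, where 1.78% of all probe sets were called higher. Their median difference was 2.99, opposite in sign to the members. Of these markers Spic, Adgre1, Mertk and Slc40a1 overlapped between the treated genotypes. The sum of the monocyte markers did not overlap between the treated genotypes. Csf1r made up most of that sum, while Ccr2 and Lyz2 overlapped. The part of either cell type was not tested.

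Whether the response itself differed between genotypes was tested as the aly response minus the WT response. Every member had a negative value, with a median of -2.39 against 0.08 over all probe sets, and every member had an unadjusted p under 0.05, as did 2468 of all 34205 probe sets. Only Gbp2 on 1418240_at passed after adjustment (-3.96 ± 0.56, 95% interval -5.15 to -2.78, limma adjusted p = 0.017). It was one of 17 probe sets called lower, which is 0.0497% of those tested, and had the second smallest p of all. Its aly response was 30.3% of its WT response on the log2 scale. The difference in response holds both genotype differences, 1.32 between untreated and -2.64 between treated DCs for this probe set.

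For the other probe sets the difference in response did not pass the test. Gbp2 on 1435906_x_at gave -1.54 ± 0.57 (adjusted p = 0.56) and Gbp3 -2.69 ± 0.59 (adjusted p = 0.13). Irgm1 gave -1.65 ± 0.52 (adjusted p = 0.43) and Igtp -1.99 ± 0.58 (adjusted p = 0.39). Iigp1 gave -3.10 ± 0.83 (adjusted p = 0.31) and -4.16 ± 0.87 (adjusted p = 0.10), Ifi47 -2.10 ± 0.55 (adjusted p = 0.27) and the Tgtp probe set -2.02 ± 0.51 (adjusted p = 0.25). For Iigp1 the aly response was 36.6% and 22.1% of the WT response on the log2 scale, or 19.3% and 6.93% without aly treated replicate 1. For Irgm1, Igtp and Ifi47 it was 39.1%, 43.5% and 40.6%. A response counts from the untreated level. Iigp1 differed by 2.00 and 2.61 between untreated genotypes and by -1.10 and -1.56 between treated genotypes. Its aly treated mean was 63.0% and 45.3% of the WT treated mean, or 23.5% and 18.4% without aly treated replicate 1.

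Leaving out aly treated replicate 1 raised the number of members called in this test from 1 to 5. Calls over all probe sets rose from 17 to 157 in the same fit. Besides Gbp2 on 1418240_at (-3.98, adjusted p = 0.0029), both Iigp1 probe sets (-3.94, adjusted p = 0.0040, and -4.98, adjusted p = 0.0024), Igtp (-2.35, adjusted p = 0.047) and Ifi47 (-2.38, adjusted p = 0.037) then passed. With the block that sets replicate 1 apart, Gbp2 on 1418240_at (limma adjusted p = 0.013) and Iigp1 on 1419043_a_at (adjusted p = 0.023) passed, among 40 of all probe sets. The call of Gbp2 held in 15 of 23 other settings, with estimates between -4.29 and -3.59 and adjusted p between 0.00047 and 0.21. Leaving out aly untreated replicate 3, WT treated replicate 1 or 3, or any WT untreated replicate ended it, with adjusted p of 0.054 to 0.10, as did an offset of 1 (adjusted p = 0.21) and replicates 2 and 3 alone (adjusted p = 0.055). The poly-A spike-ins marked replicate 1 in every group; within replicate 1 the Gbp2 response was 1.86 in aly and 5.66 in WT, within replicate 2 it was 1.91 in aly and 5.70 in WT, and within replicate 3 it was 1.39 in aly and 5.70 in WT.

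The 2 probe sets of Gbp2 did not report the same genotype difference. The suffix x marks a probe set in which some probes may also match other sequences, and the probe sequences were not used here. The log2 value of 1418240_at minus that of 1435906_x_at was -1.92, -0.98 and -0.33 in aly treated and -0.13, -0.01 and 0.92 in aly untreated arrays, and 0.98, 1.08 and 1.06 in WT treated and -0.22, -0.08 and 0.14 in WT untreated arrays. The treatment moved this difference by -1.34 in aly and by 1.09 in WT, and in neither genotype did treated and untreated arrays overlap.

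Between the treated genotypes the difference shifted by -2.12, aly minus WT, again with no overlap. Each of these 3 shifts had a two-sided exact permutation p of 0.1, the smallest that 3 against 3 arrays allow, so p under 0.05 could not be reached. Between untreated genotypes the shift was 0.31 (exact permutation p = 0.6). As a result the aly treated mean was 16.4% of the WT treated mean on 1418240_at and 76.7% on 1435906_x_at, or 16.4% and 51.1% without aly treated replicate 1. The largest gap between the probe sets, -1.92, was on that same replicate.

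For the 2 probe sets of Iigp1, the difference 1419043_a_at minus 1419042_at was positive on all 12 arrays, from 0.75 to 2.16, and shifted by -0.61 in the aly response (exact permutation p = 0.2), 0.46 in the WT response (p = 0.1), 0.61 between untreated genotypes (p = 0.2) and -0.46 between treated genotypes (p = 0.1), each by the same exact permutation test. Over 12 arrays the Iigp1 probe sets correlated at r = 0.984 and the Gbp2 probe sets at r = 0.916, as a description of arrays that share the 4 groups.

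**Figure D3:**
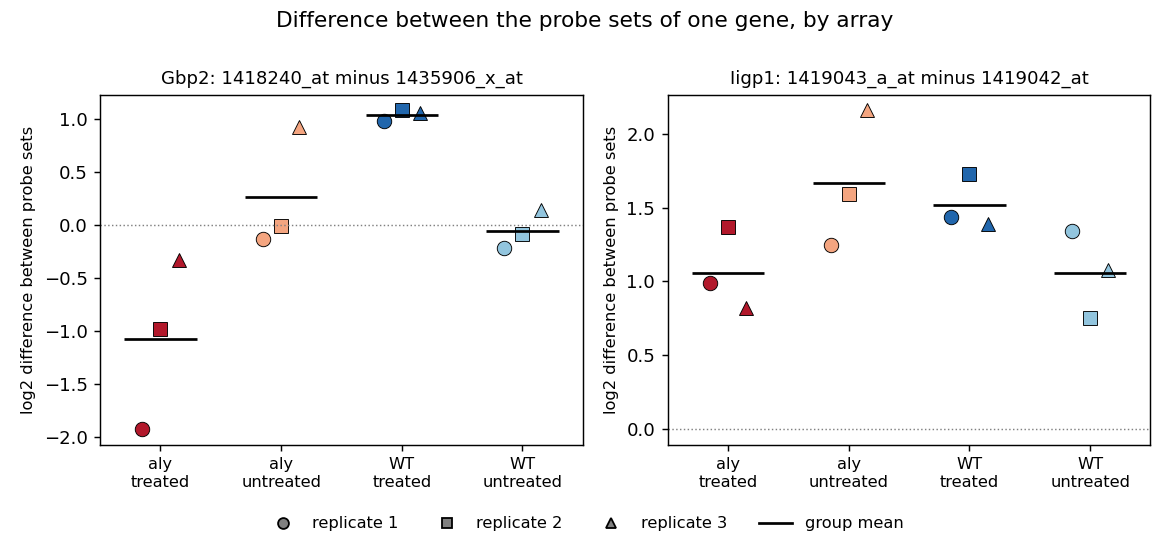
Log2 difference between the 2 probe sets of Gbp2 (left) and of Iigp1 (right) on each array, by group, with the mean of 3 arrays as a black line. For Gbp2 the WT treated arrays lie at 0.98 to 1.08 and the aly treated arrays at -1.92 to -0.33; for Iigp1 all 12 arrays lie above 0.

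Over 12 arrays the 8 member probe sets correlated with each other at r = 0.686 to 0.984 (28 pairs), as a description over arrays that fall into 4 groups. The mean standardised profile of the 6 genes was set against 15013 other genes. The most alike were Fbxw17, an F-box gene (r = 0.992 over 12 arrays), Ccser2 (0.989), Il2ra, the alpha chain of the interleukin 2 receptor (0.988), the protease gene Htra1 (0.987), the carbonic anhydrase gene Car13 (0.984) and the phospholipase gene Pla1a (0.981). Their treatment changes were 0.78 to 2.72 in aly and 2.44 to 6.00 in WT. In all, 204 genes had r above 0.9, so many genes shared this profile.

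Of 22 other GBP and IRG genes 8 were measured, each read on its brightest probe set. In aly DCs none of the 8 passed (0 called in limma), with a median change of 0.49 against 0.01 over all probe sets. Gbp6 gave 2.46 ± 0.54 (adjusted p = 0.071), Gbp7 2.32 ± 0.58 (adjusted p = 0.12), Gm4951 1.32 ± 0.52 (adjusted p = 0.38) and Gm12185 0.49 ± 0.48 (adjusted p = 0.70). In aly treated arrays Gbp6 read 2470, 1040 and 608 and Gbp7 read 5570, 863 and 758. Both were highest on replicate 1, as were Gm4951 and Gm12185.

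In WT DCs 5 rose and 0 fell, where 3.82% of all probe sets were called higher, with a median change of 2.34 against -0.07 over all probe sets. Gbp6 rose 30.4-fold (4.92 ± 0.54, limma adjusted p = 1.9e-05), the IRG gene Gm4951 26.0-fold (4.70 ± 0.52, adjusted p = 2.4e-05), Gbp7 17.3-fold (4.11 ± 0.58, adjusted p = 0.00023) and the IRG gene Gm12185 6.15-fold (2.62 ± 0.48, adjusted p = 0.0026). Irgm2, a regulator of the Irgm group named after its values were seen, was the fifth, at 2.05 ± 0.43 (adjusted p = 0.0065).

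Between treated genotypes the median was -1.17, against 0.21 over all probe sets, and 1 gene was called lower in aly, where 2.01% of all were. That gene, Gbp8, was named after its values were seen. It read 80.3, 739 and 770 in aly treated, against 2700, 3640 and 3150 in WT treated arrays (-3.03 ± 0.60, limma adjusted p = 0.012). Without aly treated replicate 1 there were 4 such genes, and calls over all probe sets, in either direction, rose from 1297 to 1656. Gbp6 differed by -0.74 ± 0.54 (adjusted p = 0.46) on the brightest probe set and by -2.39 ± 0.60 (adjusted p = 0.034) on the other. The response differed between genotypes for 0 of these genes, or for 3 without aly treated replicate 1. Over all probe sets that test called 17, or 157 without that array.

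The signalling that drives GBP and IRG genes was read from 21 measured genes of interferon signalling. In aly DCs 1 rose, Socs3, and 0 fell, where 0.257% of all probe sets were called higher, and the median change was 0.19 against 0.01 over all. In WT DCs 9 rose and 0 fell, where 3.82% of all were called higher, and the median change was 0.73 against -0.07 over all. Ifng, the cytokine interferon gamma, read 1290, 149 and 180 in aly treated and 5.30, 0.80 and 39.0 in aly untreated arrays, and 6300, 2230 and 641 in WT treated and 16.2, 4.50 and 2.50 in WT untreated arrays. Its change of 3.69 ± 0.77 in aly was not called (limma adjusted p = 0.053), and it rose by 6.51 ± 0.77 in WT (adjusted p = 4.1e-05). Treated arrays were above untreated arrays in both genotypes, and the treated genotypes overlapped, with a difference of -2.60 ± 0.77 (adjusted p = 0.067).

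The transcription factor gene Irf7 gave 1.95 ± 0.41 in aly (adjusted p = 0.055) and rose by 4.31 ± 0.41 in WT (adjusted p = 4.9e-06). Irf1, a factor known to drive GBP genes, gave 1.17 ± 0.51 in aly (adjusted p = 0.41) and rose by 2.18 ± 0.51 in WT (adjusted p = 0.014). Usp18, a feedback inhibitor of type I interferon signalling, gave 1.77 ± 0.41 in aly (adjusted p = 0.086) and rose by 3.06 ± 0.41 in WT (adjusted p = 0.00013). Socs3, an inhibitor of cytokine signalling, was the gene called in both genotypes, at 3.43 ± 0.46 in aly (adjusted p = 0.0027) and 4.30 ± 0.46 in WT (adjusted p = 1.7e-05), on a probe set with the suffix x; of its other 2 probe sets, 1 was called in aly (3.28, adjusted p = 0.0080) and 1 was not (1.88, adjusted p = 0.099). Ifnb1, interferon beta, was not called in either, at 0.73 ± 0.46 in aly (adjusted p = 0.54) and -0.40 ± 0.46 in WT (adjusted p = 0.75).

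Between treated genotypes 6 of the 21 signalling genes were lower in aly and 0 higher, where 2.01% of all probe sets were called lower (3.60% with median centring), with a median of -1.11 against 0.21 over all probe sets. Irf7 (-2.20 ± 0.41, adjusted p = 0.0091) and Usp18 (-2.12 ± 0.41, adjusted p = 0.010) were among them. Irf1 differed by -0.66 ± 0.51 (adjusted p = 0.48). Its intensities were 18000, 4000 and 3290 in aly treated and 11900, 8260 and 9570 in WT treated arrays. The value on aly treated replicate 1 was thus above every WT treated array, and the other aly treated values were below every WT treated array. The difference in response was called for 0 of 21 genes in limma, with or without aly treated replicate 1.

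**Figure D4:**
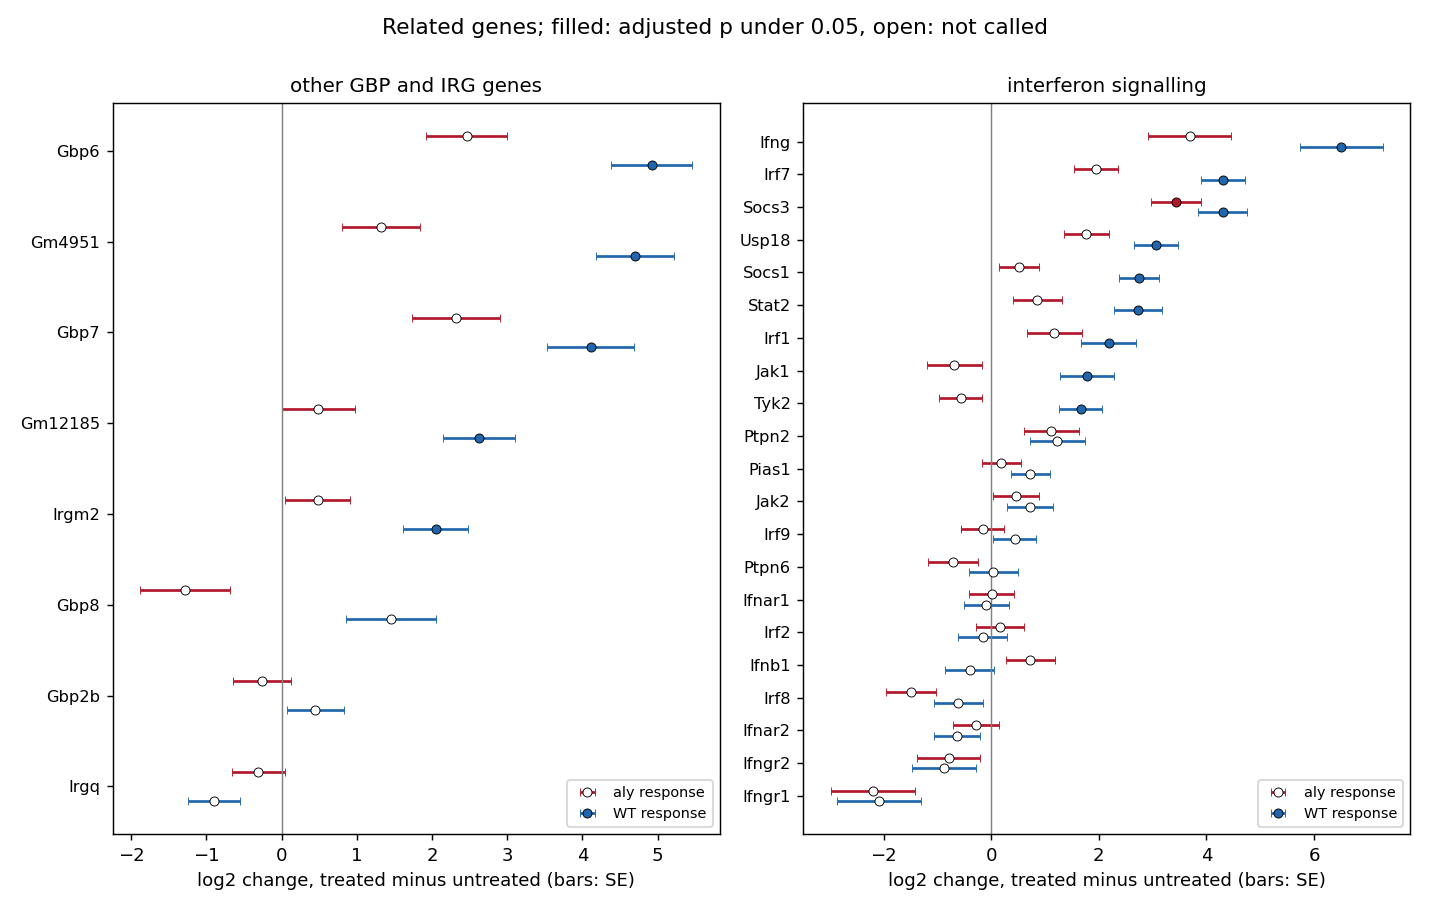
Log2 change, treated minus untreated, with SE from 3 arrays per group, in aly and in WT for 8 other GBP and IRG genes (left) and 21 genes of interferon signalling (right). Filled points passed an adjusted p under 0.05: 5 on the left and 9 on the right in WT, and Socs3 alone in aly.

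Genes known to work with GBP and IRG proteins were read from 3 further lists. Of 8 genes of caspases and the inflammasome 0 were called in aly DCs (median -0.13, against 0.01 over all), where 0.257% of all probe sets were called higher. In WT DCs 2 rose (median 0.01, against -0.07 over all), where 3.82% of all probe sets were called higher. Casp4, which encodes the caspase that senses cytosolic LPS (caspase-11 in the mouse), gave 1.18 ± 0.45 in aly DCs (limma adjusted p = 0.36) and rose by 3.42 ± 0.45, 10.7-fold, in WT DCs (adjusted p = 0.00012). Gsdmd, the pore-forming substrate of that caspase, gave 0.38 ± 0.35 in aly DCs (adjusted p = 0.69) and rose by 1.71 ± 0.35 in WT DCs (adjusted p = 0.0061). Casp4 read 434, 259 and 974 in aly treated, against 2500, 3540 and 3290 in WT treated arrays, a difference of -2.64 ± 0.45 (limma adjusted p = 0.0060). It was the only gene of this list called between treated genotypes, where 2.01% of all probe sets were called lower.

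The ATG8 conjugation machinery of autophagy, known to direct IRG and GBP proteins to vacuoles in the mouse, showed no common direction. In aly DCs and between the genotypes 0 of 14 genes were called in limma. Of all probe sets 0.257% were called higher in aly DCs and 2.01% lower between treated genotypes. In WT DCs 1 rose, Sqstm1 (1.62 ± 0.35, adjusted p = 0.0085), an autophagy receptor, and 1 fell, Atg10 (-1.36 ± 0.39, adjusted p = 0.044). Of all probe sets 3.82% were called higher in WT and 2.72% lower. The median in WT was -0.05 over these genes and -0.07 over all. Of 8 measured genes of oxidative and metal restriction none was called in aly DCs (0 in limma), where Acod1 gave 5.01 ± 1.09 (adjusted p = 0.069), nor between the genotypes. Acod1 read 15600, 721 and 184 in aly treated arrays, so its highest value was on replicate 1. In WT DCs 4 rose, where 3.82% of all probe sets were called higher, with a median of 0.98 against -0.07 over all. These were Lcn2, which binds bacterial siderophores (4.53 ± 0.72, limma adjusted p = 0.00078), and Acod1, which makes itaconate (5.14 ± 1.09, adjusted p = 0.0077). The others were Ido1, which degrades tryptophan (1.86 ± 0.43, adjusted p = 0.014), and Ncf1 of the NADPH oxidase (1.24 ± 0.36, adjusted p = 0.048).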

How the data were processed

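In the deposited values the authors give an intensity for each probe set and array for 12 Affymetrix arrays (4 groups of 3), on a linear scale with a 2% trimmed mean of 150.001 on every array. Neither the sources used here nor the values say which software made them or how background was treated. All columns matched a sample (0 unmatched). Per the labels' protocols, RNA was extracted with RNeasy kits and labelled in a second amplification. Gene names came from the platform annotation, in which 34958 probe sets have 1 symbol, 932 several and 9211 none; symbols were checked against RefSeq by gene identifier (0 changed).

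Values were used as log2(intensity + 16). The 64 control probe sets were left out, and the filter on low values kept 34205 probe sets (15019 genes), those that exceeded the 40th percentile of the array on 3 or more arrays. One linear model with a mean per group was fitted to all 12 arrays in limma 3.58.1 (R 4.3.3), with 8 residual and 9.51 prior degrees of freedom, and p-values were adjusted by Benjamini-Hochberg over all 34205 probe sets of a comparison. The median SE was 0.44 between groups and 0.62 for the difference in response. The number of arrays limits the precision. The script was tested on simulated data.

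The members and the gene lists were chosen with earlier results of these data known. Named from each list were at most 4 genes with the smallest p in the WT treatment comparison, besides Ifng, Ifnb1 and Irf1. Alternatives covered the offset, the filter, the scaling, the arrays fitted, array weights, 1 probe set per gene, a block for the replicate number or for the spike-in batch, and leaving out each array. Same-numbered arrays deviated from their group means together only in part: the correlation was -0.02 to 0.30 over 18 same-numbered pairs (median 0.08, above 0.1 in 7) and -0.25 to 0.19 over 36 others (median -0.06, above 0.1 in 1). Not every pair exceeded 0.1, so the numbers were not taken as pairs. Spike-in levels set replicate 1 apart in every group, but the labels name no batch. A block that sets replicate 1 apart was fitted and is called the spike-in batch block here. Whether these arrays were processed together is not known.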

Additional observations from a re-analysis of the deposited data

Results flagged for a closer look

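Gbp2 on probe set 1418240_at responded differently in the 2 genotypes by the test of the difference itself: the aly response minus the WT response was -3.96 log2 units (limma adjusted p = 0.017), with responses of 1.72 in aly and 5.69 in WT. It stands here because it was the only member whose difference in response passed that test; on the other Gbp2 probe set, 1435906_x_at, the same value was -1.54 (adjusted p = 0.56).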

How the results depend on the processing

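No member changed direction under any alternative run, and all 8 stayed called in the WT response except where 1 probe set per gene left 6 to count. Members called in the aly response (1) were 0 with an offset of 1, with only the groups compared and with 1 probe set per gene, 2 with array weights and 1 in every leave-one-out fit. Between untreated genotypes (0) there were 2 with only the groups compared, with array weights, with the replicate block, with replicates 2 and 3 only and with the spike-in batch block, and 0 to 2 on leaving out 1 array. Between treated genotypes (5) there were 1 with an offset of 1, 0 with only the groups compared, and 1 to 7 on leaving out 1 array. In the difference of responses (1) there were 0 with an offset of 1, 2 with an offset of 64, 7 with array weights, 2 each with the replicate block, replicates 2 and 3 only and the spike-in batch block, and 0 to 5 on leaving out 1 array.

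Over all probe sets, WT calls (2237) were 1122 with an offset of 1, 4843 with only the groups compared, 5678 with array weights, 1458 with 1 probe set per gene and 920 to 4588 on leaving out 1 array. Aly calls (94) were 6 with an offset of 1, 50 without the filter, 2 with only the groups compared, 175 with array weights, 44 with replicates 2 and 3 only, 181 with the spike-in batch block and 16 to 127 on leaving out 1 array. Calls between untreated genotypes (127) were 0 and 62 with offsets of 1 and 64, 54 without the filter, 31 with median centring, 586 with only the groups compared, 867 with array weights, 83 with 1 probe set per gene, 234 with the replicate block, 375 with replicates 2 and 3 only, 296 with the spike-in batch block and 0 to 673 on leaving out 1 array. Between treated genotypes (1297) they were 147 with an offset of 1, 20 with only the groups compared, 4165 with array weights, 807 with 1 probe set per gene, 2098 with the spike-in batch block and 88 to 2773 on leaving out 1 array. In the difference of responses (17) they were 0 and 73 with offsets of 1 and 64, 10 without the filter, 372 with array weights, 27 with the replicate block, 11 with replicates 2 and 3 only, 40 with the spike-in batch block and 1 to 157 on leaving out 1 array. Higher calls were 46.9% of those between treated genotypes, 16% with median centring and 37.9% with quantile normalization. They were 94.5% of those between untreated genotypes and 77.4% with median centring. The causes of these moves were not tested. Spike-in levels set replicate 1 apart in every group, and the other numbers share no label beyond the number; with the replicate block, Iigp1 passed between untreated genotypes on both probe sets (2.00, adjusted p = 0.044, and 2.61, adjusted p = 0.023), and 1419043_a_at also passed in the difference of responses (-4.16, adjusted p = 0.035). The list counts without aly treated replicate 1 were added after seeing the data.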
